A study of Rattus norvegicus with 9 samples.

Results

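The 60 genes described here carry the symbols of families whose members dock, prime and fuse synaptic vesicles with the plasma membrane: synaptotagmins (Syt), syntaxins (Stx), syntaxin-binding proteins (Stxbp), vesicle-associated membrane proteins (Vamp), the SNAP family (Snap), complexins (Cplx), RIM proteins (Rims), Munc13 proteins (Unc13), synapsins (Syn) and SV2 proteins (Sv2). Not all of the 60 are release genes: 11 encode SNAREs of the endosome, Golgi and ER, and Snap91 encodes a clathrin adaptor. The 60 were chosen by the form of the gene symbol among the mRNA genes of a table of 37209 genes, of which 23422 were typed as mRNA. The form was met by 67 genes. Of these, 5 had fewer than 90 reads over the 9 rats together, namely Stx3 with 83, Stx19 with 51, Unc13b with 31, Syt8 with 24 and Cplx4 with 13, and 2 more, Cplx3 and Syt6, were left out by name, with earlier results of these data known, so that the counts below do not cover them. Each of the 60 passed edgeR's filterByExpr and was tested.

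RNA was sequenced from the frontal cortex of 9 male Wistar rats aged 14 weeks, 3 in each of 3 groups, and the number of reads on each gene was deposited. Control rats (A1, A2 and A6) were left with their mothers until weaning. MS rats (B3, B4 and B6) underwent maternal separation, in which the mother was taken to another cage for 4 h a day from postnatal day (PND) 1 to PND 21. MS+EA rats (C3, C10 and C16) underwent the same separation and then received electroacupuncture (EA), current passed through needles at the GV20 and GV29 points of the head, every other day from PND 61 to PND 81. Anaesthesia accompanied the sessions and, per the labels, was given to the Control and MS rats too, and all groups had gone through behavioural tests. A group that had separation and a sham session was not analysed here, and neither was EA without separation, so that needling, current and handling cannot be told apart. The comparison of MS with Control addresses early-life stress, and that of MS+EA with MS addresses the treatment.

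Release of transmitter depends on SNARE proteins. A vesicle SNARE (Vamp1 or Vamp2) zips together with the plasma membrane SNAREs syntaxin and Snap25, and the pull of this bundle merges the membranes. Munc18 proteins hold syntaxin ready, Munc13 and RIM proteins prime the vesicle at the active zone, complexins clamp the partly zipped bundle, and synaptotagmin triggers fusion when it binds calcium. In the cerebral cortex nearly all neurons use this set, and some relatives of the same families serve membrane traffic in every cell type.

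The library totals lay between 12479905 and 19007907 counts, and the 3 MS+EA totals, at most 14913736, lay below the other 6, of which the lowest was 16106381. Levels are given as CPM, counts scaled to the TMM-normalised library size, and since CPM does not correct for transcript length, levels are compared between rats only and never between genes. Single values follow the order in which the rats are named above. Over the 9 pairs of rats within a group, the variance between rats was 6.12 to 13.4 times that of counting alone. The median coefficient of variation of a member within a group was 9.22%. The frontal cortex label was checked against markers fixed by list. The excitatory cortical genes Slc17a7, Camk2a and Neurod6 were present in every rat. Of 5 thalamic markers, Gbx2 was at 0 in 8 of 9 rats, while Tcf7l2, Lef1, Rora and Prkcd were present in every rat. The thalamic markers summed to 175 to 178 CPM in Control, 190 to 226 CPM in MS and 203 to 212 CPM in MS+EA rats. Both separated groups thus lay above Control, and the part of this in the values of the members was not tested. Most of that sum is Rora, at 142 to 177 CPM. The summed hypothalamic markers were 47.8 CPM in rat B4 and at most 5.78 CPM in each of the others. Rat C3 had the highest oligodendrocyte marker sum, 4176 CPM against 1830 to 3241 CPM in the other 8.

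The members moved little. Between MS and Control rats, 6.67% of the members were higher and 3.33% lower at an unadjusted p under 0.05 by edgeR's quasi-likelihood test. These shares lie near the 7.06% and 3.55% of all genes. Among these members were the SNARE regulator Stxbp6 and the SNARE gene Snap25, higher, and the calcium sensor Syt7, lower. Their adjusted p by that test was 0.196, 0.390 and 0.463. MS+EA rats differed from Control rats in more of the members. At an adjusted p under 0.05 by the quasi-likelihood test, Syt14, Stxbp3, Stxbp6 and Vamp7 were higher, 6.67% as against 3.21% of all genes. At that rule 0 members were lower, as against 2.19% of all genes. Stx1a, Vamp2, Syt3, Syt5, Syt7, Syt11 and Syt13 were lower at an unadjusted p under 0.05 by that test and at an adjusted p under 0.05 by DESeq2. By DESeq2 18.3% of the members and 9.25% of all genes had such an adjusted p, in either direction. The share of all genes lower by DESeq2 was not counted. No member passed both thresholds of the study, a Benjamini-Hochberg adjusted p under 0.05 over the 16837 genes tested and a fold change above 1.5, by edgeR's quasi-likelihood test. With 3 rats against 3, an exact permutation test of 1 gene cannot go below p = 0.1, so the p-values come from the model fitted across all genes.

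**Figure D1:**
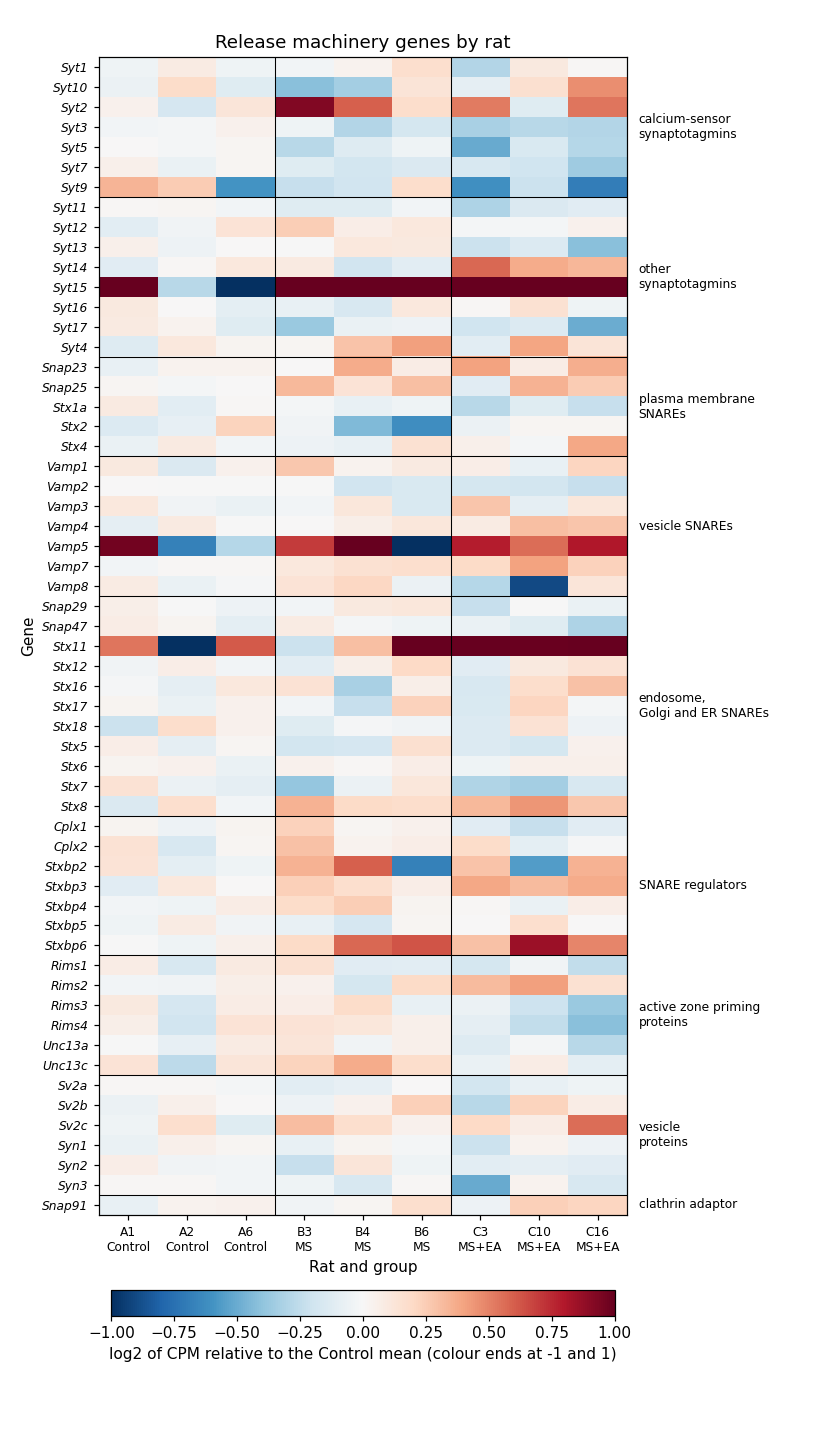
Colour shows the log2 of each member's CPM in each rat relative to the mean of the 3 Control rats for 58 of the 60 members, with genes in rows ordered by role and rats in columns, and the colour scale ends at -1 and 1. Most cells are near white, and the strongest colours are in Syt15, Vamp5 and Stx11, which have 104, 156 and 93 reads in all.

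Between MS and Control rats, 0 of the 60 members passed both thresholds, as against 0.0238% of all genes (4 of 16837). At an unadjusted p under 0.05, 4 members were higher in MS rats, which is 6.67% as against 7.06% of all genes. These were Stxbp6, Syt2, Snap25 and Unc13c. Lower were 2 members, Stx2 and Syt7, which is 3.33% as against 3.55% of all genes. Both shares lie near those of all genes, so the comparison shows no excess of members. The median log2 fold change of the members was 0.042 beside -0.0014 over all genes, with 35 members higher and 25 lower. Counts this small turn on single rats: the 4 became 2 without A2 or B3, the 2 became 1 without A1 and 0 without A6, B4 or B6, and the median became -0.0015 without B6.

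Between MS+EA and MS rats, again 0 members passed both thresholds, as against 0.0178% of all genes (3 of 16837). At an unadjusted p under 0.05, Syt14, Rims2, Stx2 and Stxbp3 were higher in MS+EA rats, 6.67% of the members as against 6.01% of all genes. The 7 lower members were Syt13, Rims4, Cplx1, Unc13c, Rims3, Unc13a and Stx1a, 11.7% as against 6.42% of all genes. They come from 4 roles, and 4 of the 7 belong to the active zone priming proteins. The median log2 fold change was -0.079 beside 0.00059 over all genes, and 39 of 60 members were lower. The median rested on rat C3, since without that rat it was -0.0021. The 4 higher members became 1 without B4 or C10, 2 without C16 and 7 without C3, and the 7 lower ones became 4 without B4 or C16.

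Between MS+EA and Control rats, 0 members passed both thresholds, as against 1.37% of all genes (230 of 16837). At an adjusted p under 0.05 and any fold change, 4 members were higher, 6.67% as against 3.21% of all genes, and 0 were lower, as against 2.19% of all genes. At an unadjusted p under 0.05, 8 members were higher, 13.3% as against 11.9%, and 11 were lower, 18.3% as against 10.6%. The lower ones became 7 without rat A1. The median log2 fold change was 0.0014 beside 0.0055 over all genes, with 30 members higher and 30 lower. This comparison shares its rats with the other comparisons, so its values stand beside theirs and do not add to them. By DESeq2 11 members had an adjusted p under 0.05 here, 18.3% as against 9.25% of all genes. These DESeq2 shares cover both directions, and the share of all genes lower by DESeq2 was not counted. The lower ones among the 11 members were Stx1a, Vamp2, Syt3, Syt5, Syt7, Syt11 and Syt13. By edgeR's likelihood ratio test the members were 8, 13.3% as against 8.57%, with Syt3, Syt5 and Syt7 among them, and by limma-trend 4, 6.67% as against 5.55%.

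**Figure D2:**
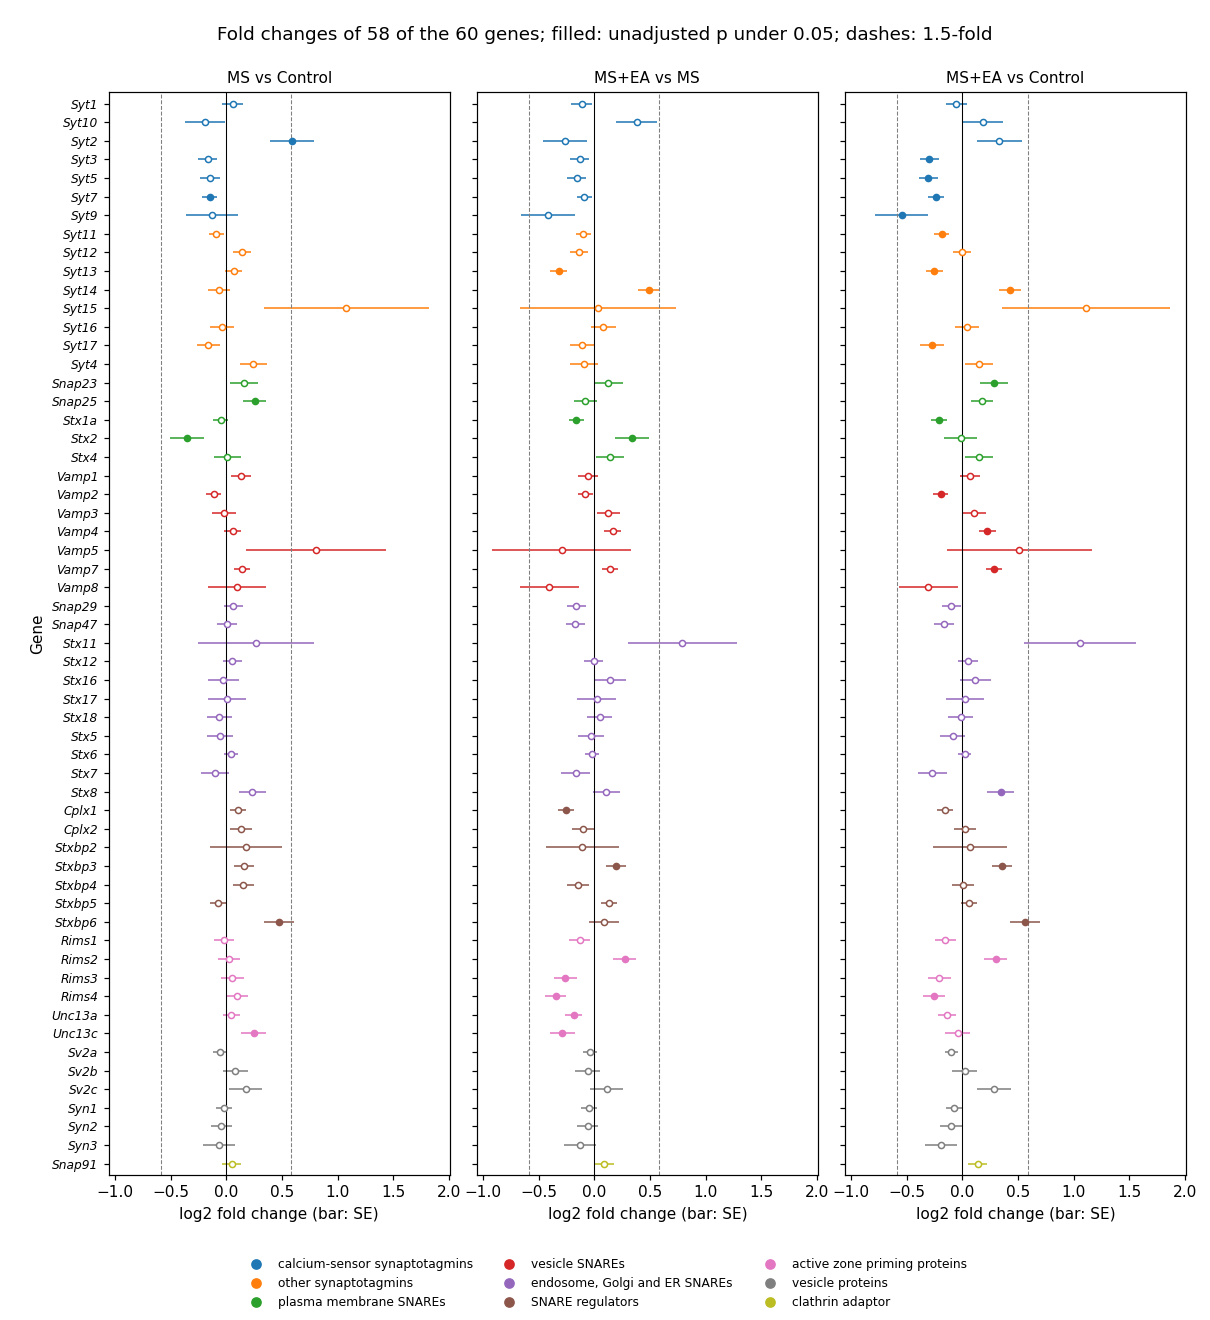
Points give the log2 fold change of 58 of the 60 members in the 3 comparisons and bars the standard error, coloured by role, with filled points at an unadjusted p under 0.05 and dashed lines at 1.5-fold. Points past the dashed lines are Syt2, Syt15 and Vamp5 in MS against Control, Stx11 in MS+EA against MS, and Syt15 and Stx11 in MS+EA against Control, and of these only Syt2 has an unadjusted p under 0.05.

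Groups that did not overlap were also counted. MS rats lay above the other 6 rats for 1 member, Unc13c, and for 1.12% of all genes, and below them for 0 members and 1.13% of all genes. MS+EA rats lay above the other 6 rats for 3 members, Syt14, Stxbp3 and Vamp7, which is 5% of the members as against 4.06% of all genes. They lay below the other 6 rats for Cplx1, Stx1a and Syt13, again 5%, as against 5.89% of all genes. Each of these shares lies near that of all genes.

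The 4 members with an adjusted p under 0.05 between MS+EA and Control rats come first. Syt14 encodes a synaptotagmin that lacks the calcium-binding residues of the sensors. In Control rats Syt14 stood at 45.6, 49.8 and 53.0 CPM, in MS rats at 52.5, 43.3 and 45.9 CPM and in MS+EA rats at 73.6, 64.0 and 62.0 CPM. The 3 MS+EA rats were the highest of the 9, and the MS and Control rats overlapped. Its log2 fold change was 0.43 (SE 0.10) against Control, 1.35-fold, with an edgeR adjusted p of 0.0288. Against MS rats it was 0.49 (SE 0.10), with an adjusted p of 0.184, and between MS and Control rats -0.06 (SE 0.10). The call against Control was kept without C16, at an adjusted p of 0.0448, and was lost without A1 (0.132), A2 (0.0638), A6 (0.0512), C3 (0.0629) or C10 (0.0540).

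Stxbp6, also called amisyn, encodes a protein with a SNARE motif that can occupy the place of a vesicle SNARE beside syntaxin and Snap25. The Stxbp6 values were 124, 120.2 and 129 CPM in Control, 142, 185 and 192 CPM in MS and 152, 224 and 174 CPM in MS+EA rats. All 6 separated rats lay above all Control rats, and the MS and MS+EA rats overlapped. In MS against Control it differed by 0.48 (SE 0.13) on the log2 scale, with an edgeR adjusted p of 0.196. It was 0.56 (SE 0.13) in MS+EA against Control with an adjusted p of 0.0344, a 1.48-fold difference that stops short of 1.5-fold. Between MS+EA and MS rats it was 0.09 (SE 0.13). For MS against Control DESeq2 gave an adjusted p of 0.0409, and over the other settings and tests that omit no rat it lay between 0.00626 and 0.219. Omission of a single rat gave an adjusted p between 0.0679 and 0.550 in that comparison. Without C3 the gene passed both thresholds against Control, at a log2 fold change of 0.69 and an adjusted p of 0.0137, and the call was lost without A1 (adjusted p 0.126), A2 (0.0821), A6 (0.0782), C10 (0.0883) or C16 (0.0662).

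Stxbp3 encodes the Munc18 protein that binds syntaxin 4 and is not particular to neurons. For Stxbp3, Control rats had 27.1, 31.5 and 29.3 CPM, MS rats 34.6, 32.8 and 30.6 CPM and MS+EA rats 38.2, 36.3 and 37.9 CPM. The MS+EA rats were again the highest of the 9, while MS and Control rats overlapped. Stxbp3 differed by a log2 fold change of 0.36 (SE 0.09) against Control (edgeR adjusted p 0.0395) and 0.20 (SE 0.09) against MS (adjusted p 0.388). The call against Control did not survive the omission of any of the 6 rats: the adjusted p was 0.164 without A1, 0.0504 without A2, 0.101 without A6, 0.0688 without C3, 0.0704 without C10 and 0.101 without C16.

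Vamp7 encodes the tetanus-insensitive vesicle SNARE of late endosomes and of a reserve of synaptic vesicles. Vamp7 had 65.4, 67.3 and 67.1 CPM in Control, 71.7, 74.1 and 74.9 CPM in MS and 76.2, 88.3 and 78.3 CPM in MS+EA rats. The groups followed each other with no overlap, Control lowest, MS between and MS+EA highest. The steps were small, with a log2 fold change of 0.14 (SE 0.07) in MS against Control (edgeR adjusted p 0.501) and 0.14 (SE 0.07) in MS+EA against MS (adjusted p 0.451). Their sum, 0.28 (SE 0.07) in MS+EA against Control, had an adjusted p of 0.0421. The call was kept without C3 (0.0302) and lost without A1 (0.158), A2 (0.0767), A6 (0.0976), C10 (0.121) or C16 (0.0783).

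**Figure D3:**
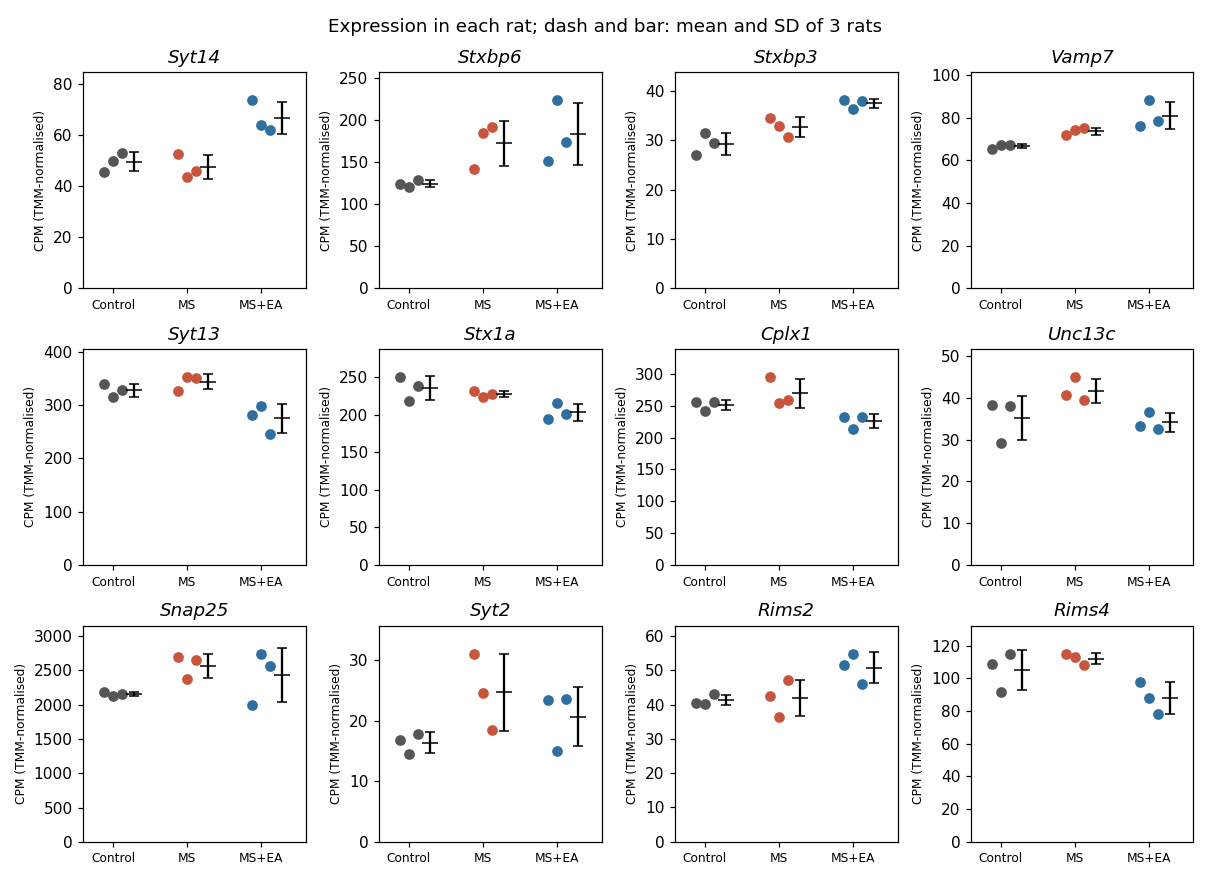
Each panel shows CPM in the 9 rats for 1 gene, with points for rats, a dash for the mean and a bar for the SD of the 3 rats of a group, on axes that start at 0. MS+EA rats are highest for Syt14, Stxbp3 and Vamp7 and lowest for Syt13, Stx1a and Cplx1, MS rats are highest for Unc13c, and the Snap25 panel shows rat C3 below the other 8.

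Promoter sequences are shown for members that stood on opposite sides: Syt14, Stxbp6 and Stxbp3, higher in MS+EA than in Control rats, and Stx1a and Vamp2, neuronal SNARE genes that were lower at an unadjusted p under 0.05. Vamp7 had no entry. Each run is the 250 bases before the RefSeq start, 5′ to 3′ on the gene's strand in build GRCr8, and capitals mark the letters GGGCGG or CCGCCC (the GC box on either strand, to which Sp factors can bind). The windows are chr13:107097883-107098132 on the minus strand for Syt14, chr6:67884339-67884588 on the minus strand for Stxbp6, chr2:199173824-199174073 on the minus strand for Stxbp3, chr12:27306472-27306721 on the minus strand for Stx1a and chr10:54292539-54292788 on the plus strand for Vamp2. For Syt14 the table listed 9 windows, and the one shown lies in the largest cluster of them.
Syt14: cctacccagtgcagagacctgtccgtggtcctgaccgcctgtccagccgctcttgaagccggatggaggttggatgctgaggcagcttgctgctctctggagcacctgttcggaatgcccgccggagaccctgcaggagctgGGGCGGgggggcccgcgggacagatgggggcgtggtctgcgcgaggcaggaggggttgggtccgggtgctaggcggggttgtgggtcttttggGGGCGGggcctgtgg
Stxbp6: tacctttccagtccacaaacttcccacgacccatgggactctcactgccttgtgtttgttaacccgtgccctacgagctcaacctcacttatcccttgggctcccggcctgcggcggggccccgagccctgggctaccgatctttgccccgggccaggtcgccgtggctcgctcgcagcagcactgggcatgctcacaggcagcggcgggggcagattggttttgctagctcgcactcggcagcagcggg
Stxbp3: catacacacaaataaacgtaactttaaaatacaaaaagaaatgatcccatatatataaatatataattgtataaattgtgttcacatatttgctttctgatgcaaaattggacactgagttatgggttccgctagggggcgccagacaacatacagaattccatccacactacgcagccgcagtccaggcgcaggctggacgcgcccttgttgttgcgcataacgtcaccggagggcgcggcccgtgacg
Stx1a: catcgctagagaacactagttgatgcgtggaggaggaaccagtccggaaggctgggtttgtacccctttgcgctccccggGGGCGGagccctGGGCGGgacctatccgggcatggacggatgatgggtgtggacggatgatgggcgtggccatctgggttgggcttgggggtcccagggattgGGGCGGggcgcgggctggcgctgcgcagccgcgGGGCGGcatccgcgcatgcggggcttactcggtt
Vamp2: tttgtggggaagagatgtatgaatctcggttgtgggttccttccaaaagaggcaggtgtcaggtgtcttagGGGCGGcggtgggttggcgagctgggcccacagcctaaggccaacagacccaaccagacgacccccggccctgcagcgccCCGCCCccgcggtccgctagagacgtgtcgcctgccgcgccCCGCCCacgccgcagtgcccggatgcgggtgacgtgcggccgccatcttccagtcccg

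The higher members held 2 GC boxes in Syt14, 0 in Stxbp6 and 0 in Stxbp3, and the lower ones held 4 in Stx1a and 3 in Vamp2. GC content was 69.2%, 64.8%, 45.2%, 68.4% and 68% in the same order. Of the 60 members, 45 had a window, and their median GC content was 62.8% beside 52% over the 27457 genes with one. A GC box stood in 29 of the 45 windows (64.4%) as against 32.5% of all windows. The letters CACGTG (the E-box) stood in 3, Snap29, Stx6 and Stxbp2 (6.67% as against 5.78%). The cAMP response element TGACGTCA stood in 2, those of Syn1 and Vamp1 (4.44% as against 1.70%). Such matches describe the letters of these windows and are not evidence of binding.

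Among the calcium sensors, Syt1 is the fast trigger of release in most cortical neurons. Syt1 was measured at 1411, 1538 and 1412 CPM in Control, 1422, 1486 and 1632 CPM in MS and 1183, 1554 and 1463 CPM in MS+EA rats. The groups overlapped in every comparison, with rat C3 lowest, and the log2 fold changes were 0.06 (SE 0.10) in MS against Control and -0.11 (SE 0.10) in MS+EA against MS. Syt2, the close relative that acts as fast sensor in a smaller set of neurons, differed most in MS rats. In Control rats Syt2 stood at 16.9, 14.5 and 17.8 CPM, in MS rats at 31.1, 24.6 and 18.4 CPM and in MS+EA rats at 23.4, 15.0 and 23.6 CPM. All MS rats lay above all Control rats, by a narrow margin in B6, and MS+EA rats spanned both groups. In MS against Control the log2 fold change was 0.59 (SE 0.20), just over 1.5-fold, with an edgeR adjusted p of 0.283. Without B3 it was 0.39 and without B6 0.77, with adjusted p between 0.278 and 0.606 over the omission of each rat. With every gene of at least 1 count tested, Syt2 passed both thresholds at an adjusted p of 0.0457, and DESeq2 gave 0.127. In MS+EA against MS it was -0.26 (SE 0.20).

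Syt7 is the slow, high-affinity sensor that serves asynchronous release and facilitation. The Syt7 values were 566, 519.6 and 552 CPM in Control, 501, 481 and 495 CPM in MS and 488, 475 and 425 CPM in MS+EA rats. All 6 separated rats lay below all Control rats. Syt7 differed by a log2 fold change of -0.15 (SE 0.07) in MS against Control (edgeR adjusted p 0.463) and -0.24 (SE 0.07) in MS+EA against Control (adjusted p 0.0611), and MS+EA and MS rats overlapped. Syt3, another high-affinity sensor, gave the smallest p of the lower members against Control. For Syt3, Control rats had 40.7, 40.8 and 42.7 CPM, MS rats 40.2, 33.7 and 36.7 CPM and MS+EA rats 33.0, 34.1 and 33.8 CPM. Both separated groups lay below Control, at a log2 fold change of -0.17 (SE 0.08) for MS and -0.30 (SE 0.08) for MS+EA (adjusted p 0.509 and 0.0592). Syt5, a related calcium sensor, had the same order. Syt5 had 248, 243 and 250.3 CPM in Control, 204, 226 and 240.4 CPM in MS and 174, 223 and 203 CPM in MS+EA rats. No separated rat reached the Control range, and the log2 fold change was -0.15 (SE 0.09) for MS and -0.31 (SE 0.09) for MS+EA (adjusted p 0.583 and 0.0628). Without rat C10 the adjusted p of Syt5 was 0.0429, and without C3 that of Syt7 was 0.0462. Of the 7 calcium sensors, 4 were lower in MS+EA than in Control rats at an unadjusted p under 0.05, a rule met by 10.6% of all genes. The fourth was Syt9, with a log2 fold change of -0.55 (SE 0.24) at 5.01 to 10.2 CPM (edgeR adjusted p 0.202). With all 9 rats, the smallest edgeR adjusted p of the 7 sensors was 0.0592. Their median was -0.24 in this comparison, beside 0.0055 over all genes. This role, like the others, was chosen with earlier results of these data known. Syt2 and Syt10 had positive values in MS+EA against Control, 0.33 (SE 0.20) and 0.19 (SE 0.18).

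These lower values came with lower excitatory neuron markers in the same rats. The 6 markers summed to 4102 to 4710 CPM in Control, 4196 to 4229 CPM in MS and 3600 to 3808 CPM in MS+EA rats. By edgeR's test 2 of the 6 had an adjusted p under 0.05 between MS+EA and Control, Slc17a7 and Camk2a, as against 5.4% of all genes. None of the 6 was at 0. The part of these markers in the values of the members was not tested, and in bulk tissue fewer cells of a type and less RNA per cell cannot be told apart. The 7 inhibitory neuron markers summed to 500 to 535 CPM in Control, 491 to 636 CPM in MS and 489 to 649 CPM in MS+EA rats, and the groups overlapped.

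Among the other synaptotagmins, Syt13, which does not bind calcium, was the lower member with the smallest p in MS+EA against MS. Syt13 was measured at 339.8, 316 and 328 CPM in Control, 327, 353 and 351 CPM in MS and 282, 297 and 245 CPM in MS+EA rats. MS+EA rats were the lowest of the 9 and the other groups overlapped. The log2 fold change was -0.32 (SE 0.08) against MS with an edgeR adjusted p of 0.197 and -0.25 (SE 0.08) against Control with an adjusted p of 0.0695, so that Syt13 and Syt14 stood on opposite sides. In MS+EA against MS, DESeq2 gave an adjusted p of 0.0153 for Syt13 and 0.00395 for Syt14, edgeR's likelihood ratio test gave 0.0387 and 0.00686, and testing every gene of at least 1 count gave 0.0521 and 0.00715. The highest adjusted p over the settings that omit no rat was 0.310 for both. Omission of a single rat raised it to as much as 0.538 for Syt13 and 0.515 for Syt14. Syt11, which acts in vesicle recycling, and Syt17 were lower in MS+EA than in Control rats, by log2 fold changes of -0.19 (SE 0.07) and -0.27 (SE 0.11) at an unadjusted p under 0.05. Syt4, Syt12 and Syt16 lay between -0.14 and 0.24 in all 3 comparisons. Syt15 had 1 to 27 reads per rat and a standard error of 0.74 in MS against Control, and no difference could be seen at that depth.

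Snap25 is the plasma membrane SNARE that contributes a pair of helices to the fusion bundle. In Control rats Snap25 stood at 2181, 2122 and 2153 CPM, in MS rats at 2689.8, 2368 and 2651 CPM and in MS+EA rats at 1991, 2742 and 2562 CPM. MS rats lay above every Control rat, and the MS+EA rats were split, C10 and C16 within the MS range or above it and C3 below all Control rats. Snap25 had a log2 fold change of 0.26 (SE 0.10) in MS against Control (edgeR adjusted p 0.390) and 0.18 (SE 0.10) in MS+EA against Control (adjusted p 0.333). Without C3 the latter was 0.31 with an adjusted p of 0.0340, and the log2 fold change against MS went from -0.08 to 0.05. C3 is the rat with the highest oligodendrocyte marker sum, and the part of that in its Snap25 value was not tested.

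Stx1a encodes a syntaxin of the neuronal plasma membrane. The Stx1a values were 251, 219 and 238 CPM in Control, 233, 223 and 228 CPM in MS and 194, 217 and 201 CPM in MS+EA rats. MS+EA rats were the lowest of the 9, by a narrow margin in C10, with a log2 fold change of -0.16 (SE 0.07) against MS and -0.21 (SE 0.07) against Control (edgeR adjusted p 0.366 and 0.0923). Stx2 encodes a syntaxin found also outside neurons. For Stx2, Control rats had 17.6, 18.4 and 22.6 CPM, MS rats 18.9, 14.3 and 12.6 CPM and MS+EA rats 18.6, 19.7 and 19.6 CPM. The groups overlapped, since B3 lay within the range of both others. The log2 fold change was -0.35 (SE 0.15) in MS against Control and 0.34 (SE 0.15) in MS+EA against MS (adjusted p 0.433 and 0.386). Snap23, the relative of Snap25 used outside neurons, was higher in MS+EA than in Control rats by 0.28 (SE 0.13), and Stx4 differed by at most 0.15 in any comparison.

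Vamp2 is the main vesicle SNARE of the cortex and Vamp1 its close relative. Vamp2 had 1479, 1472 and 1467 CPM in Control, 1467, 1291 and 1322 CPM in MS and 1307, 1296 and 1255 CPM in MS+EA rats. Both separated groups lay below Control, B3 only just, and the log2 fold change of MS+EA against Control was -0.20 (SE 0.07) (edgeR adjusted p 0.0980). Vamp1 was measured at 221, 188 and 214 CPM in Control, 249, 213 and 220.2 CPM in MS and 217, 197 and 241 CPM in MS+EA rats. Vamp1 overlapped between all groups, with log2 fold changes of 0.13 (SE 0.09) in MS and 0.07 (SE 0.09) in MS+EA against Control. Vamp4, a SNARE of the Golgi and of vesicle recycling, was higher in MS+EA than in Control rats by 0.22 (SE 0.08) at an unadjusted p under 0.05 (edgeR adjusted p 0.109, and 0.0398 without C3). The 7 vesicle SNAREs together summed to 1870 to 1901 CPM in Control, 1725 to 1926 CPM in MS and 1736 to 1752 CPM in MS+EA rats, so that MS+EA rats lay below Control rats. Most of that sum is Vamp2, and 5 of the 7 genes had positive log2 fold changes in this comparison, with a median of 0.10. Vamp3 lay within 0.13 of 0 in all 3 comparisons. Vamp8 had 433 reads in all and Vamp5 156, with 5 to 44 per rat in Vamp5, and the standard errors in MS+EA against Control were 0.27 and 0.65.

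The endosome, Golgi and ER SNAREs (11 members) serve traffic inside the cell. At an unadjusted p under 0.05 only Stx8 differed, higher in MS+EA than in Control rats by 0.34 (SE 0.12). The medians of the role were 0.01 in MS against Control, -0.01 in MS+EA against MS and 0.02 in MS+EA against Control. Stx6 had the smallest variation of any member within groups, 3.36%, and its log2 fold changes lay between -0.02 and 0.04, with a standard error of 0.06. Stx11 had 93 reads in all, 3 to 16 per rat. Snap91, which the symbol brought in, encodes a clathrin adaptor for retrieval of vesicles, and it differed by 0.14 (SE 0.08) in MS+EA against Control.

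Among the SNARE regulators, Cplx1 and Cplx2 encode the complexins of the cortex. In Control rats Cplx1 stood at 256, 242 and 256 CPM, in MS rats at 295, 254 and 259 CPM and in MS+EA rats at 232, 214 and 232 CPM. Cplx1 was lowest in the MS+EA rats, at -0.26 (SE 0.07) against MS and -0.15 (SE 0.07) against Control (edgeR adjusted p 0.236 and 0.228). The Cplx2 values were 2232, 1802 and 2042 CPM in Control, 2468, 2069 and 2114 CPM in MS and 2290.1, 1890.5 and 2004 CPM in MS+EA rats. Cplx2 overlapped between all groups and differed by 0.13 (SE 0.10) in MS against Control and -0.11 (SE 0.10) in MS+EA against MS. Stxbp4 and Stxbp5 (tomosyn, which competes with vesicle SNAREs) lay within 0.15 of 0 in all 3 comparisons. Stxbp2 had 465 reads in all and a standard error of 0.32 in MS against Control.

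The active zone priming proteins were lower in MS+EA than in MS rats in 5 of 6 genes, 4 of them at an unadjusted p under 0.05, with Rims2 higher, where 6.42% of all genes were lower at that p. Their median log2 fold change was -0.22 beside 0.00059 over all genes. The excitatory markers Slc17a7 and Camk2a were lower in the same comparison, by log2 fold changes of -0.18 and -0.28 (edgeR unadjusted p 0.0146 and 0.00751, adjusted p 0.303 and 0.260), and their part in these values was not tested. Rims1 and Rims2 encode the large scaffold RIMs. For Rims1, Control rats had 775, 662 and 783 CPM, MS rats 819.7, 682 and 686 CPM and MS+EA rats 654, 720.4 and 622 CPM. Rims1 overlapped between all groups, at -0.13 (SE 0.09) in MS+EA against MS. Rims2 had 40.6, 40.2 and 43.0 CPM in Control, 42.4, 36.5 and 47.1 CPM in MS and 51.4, 54.8 and 45.9 CPM in MS+EA rats. Rims2 was higher in MS+EA than in Control rats with no overlap, and C16 lay within the MS range, with log2 fold changes of 0.30 (SE 0.10) and 0.27 (SE 0.10) against Control and MS (edgeR adjusted p 0.105 and 0.319). Rims3 and Rims4 encode short forms that hold only the last domain of the large RIMs. Rims4 was measured at 109, 91.3 and 115 CPM in Control, 115, 113 and 108 CPM in MS and 98.0, 87.9 and 78.0 CPM in MS+EA rats. MS+EA rats lay below all MS rats for Rims4, and A2 lay within the MS+EA range. The log2 fold change was -0.35 (SE 0.10) against MS and -0.25 (SE 0.10) against Control (adjusted p 0.236 and 0.142), and that of Rims3 was -0.26 (SE 0.10) and -0.21 (SE 0.10).

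Unc13a encodes the main Munc13 priming protein of the cortex. In Control rats Unc13a stood at 359, 341 and 382 CPM, in MS rats at 391, 352 and 373 CPM and in MS+EA rats at 329.9, 355 and 297 CPM. The MS+EA and MS rats overlapped through C10, at a log2 fold change of -0.18 (SE 0.08) (edgeR adjusted p 0.361). Unc13c encodes the Munc13 protein best known from the cerebellum. The Unc13c values were 38.4, 29.1 and 38.0 CPM in Control, 40.6, 45.0 and 39.4 CPM in MS and 33.2, 36.7 and 32.5 CPM in MS+EA rats. The 3 MS rats were the highest of the 9, A1 and A6 close beneath them, and the other groups overlapped. Unc13c had a log2 fold change of 0.25 (SE 0.11) in MS against Control and -0.29 (SE 0.11) in MS+EA against MS (adjusted p 0.461 and 0.329). Unc13b had 0 to 8 reads per rat, and a difference was not detectable at this depth.

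Among the vesicle proteins, synapsins tether vesicles in the reserve pool, and SV2 proteins are transporter-like proteins of the vesicle membrane. For Syn1, Control rats had 151, 164 and 161 CPM, MS rats 151, 161 and 156 CPM and MS+EA rats 137, 162 and 153 CPM. Syn2 had 37.1, 34.6 and 34.7 CPM in Control, 30.2, 38.7 and 34.5 CPM in MS and 33.0, 33.2 and 32.8 CPM in MS+EA rats. Syn1 overlapped between all groups, while for Syn2 the 3 MS+EA rats lay just below the Control rats and within the MS range. Their log2 fold changes in MS+EA against Control were -0.07 (SE 0.07) and -0.10 (SE 0.10). Sv2a was measured at 456, 456 and 448 CPM in Control, 422, 429 and 454 CPM in MS and 400.1, 429.9 and 441 CPM in MS+EA rats. In Control rats Sv2b stood at 891, 963 and 931 CPM, in MS rats at 897, 956 and 1093 CPM and in MS+EA rats at 767, 1081 and 976 CPM. Sv2a was lower in MS+EA than in Control rats with no overlap but by only -0.10 (SE 0.06), and Sv2b overlapped throughout and was lowest in C3, at 0.02 (SE 0.11). Syn3 and Sv2c differed by -0.19 (SE 0.15) and 0.28 (SE 0.15) in the same comparison. None of the 6 had an unadjusted p under 0.05 in any comparison, and the smallest adjusted p was 0.291.

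The members together summed to 17697 ± 291 CPM in Control, 18252 ± 598 CPM in MS and 17229 ± 955 CPM in MS+EA rats (SD, n = 3). The single values were 17959, 17384 and 17749 CPM in Control rats, 18493, 17571 and 18693 CPM in MS rats and 16196, 18081 and 17409 CPM in MS+EA rats. The groups overlapped, and C3 was the lowest of the 9. C3 held the lowest value of the 9 rats for 14 members, 23.3% as against 13.6% of all genes. Its part in each comparison is given above where it changed a call or a count.

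**Figure D4:**
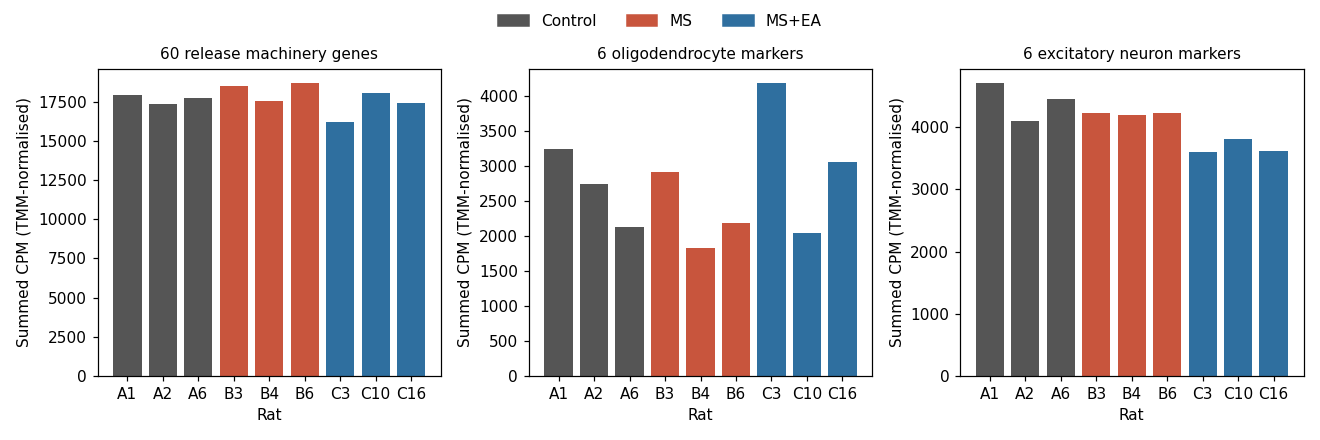
Bars give summed CPM in each of the 9 rats for the 60 members, for 6 oligodendrocyte markers and for 6 excitatory neuron markers, on axes that start at 0 and coloured by group. Rat C3 has the lowest sum of the members (16196 CPM) and the highest of the oligodendrocyte markers (4176 CPM), and the 3 MS+EA rats have the lowest sums of the excitatory markers.

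The other genes of the vesicle cycle were taken from a list of 62, all of which were tested. In MS against Control 2 were higher at an unadjusted p under 0.05, 3.23% as against 7.06% of all genes, and 1 was lower, 1.61% as against 3.55%. Between MS+EA and MS rats 3 were higher, 4.84% as against 6.01%, and 10 were lower, 16.1% as against 6.42%. In MS+EA against Control 5 were higher, 8.06% as against 11.9%, and 18 were lower, 29% as against 10.6%. By edgeR's test 6 of the 62 had an adjusted p under 0.05 in this comparison, a rule met by 5.4% of all genes (3.21% higher and 2.19% lower). Lower were Syngr3 (synaptogyrin 3) at a log2 fold change of -0.44 (adjusted p 0.0110), Slc17a7 (the vesicular glutamate transporter of most cortical neurons, also one of the excitatory markers) at -0.30 (adjusted p 0.0207), Atp6v0c (a subunit of the vesicle's proton pump) at -0.31 (adjusted p 0.0261), Ap2a1 (a clathrin adaptor subunit) at -0.30 (adjusted p 0.0313) and Dnajc5 (a chaperone of Snap25) at -0.23 (adjusted p 0.0423). Higher was Rab27b (a small GTPase of vesicle traffic) at 0.53 (adjusted p 0.0261). The genes of the vesicle membrane, Rab3 effectors and transport held 10 of the 18 lower genes, out of 21 listed, with a median of -0.22, and endocytosis held 5 of 16. The 9 active zone scaffold genes and the 4 of SNARE disassembly held none of the 18.

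**Figure D5:**
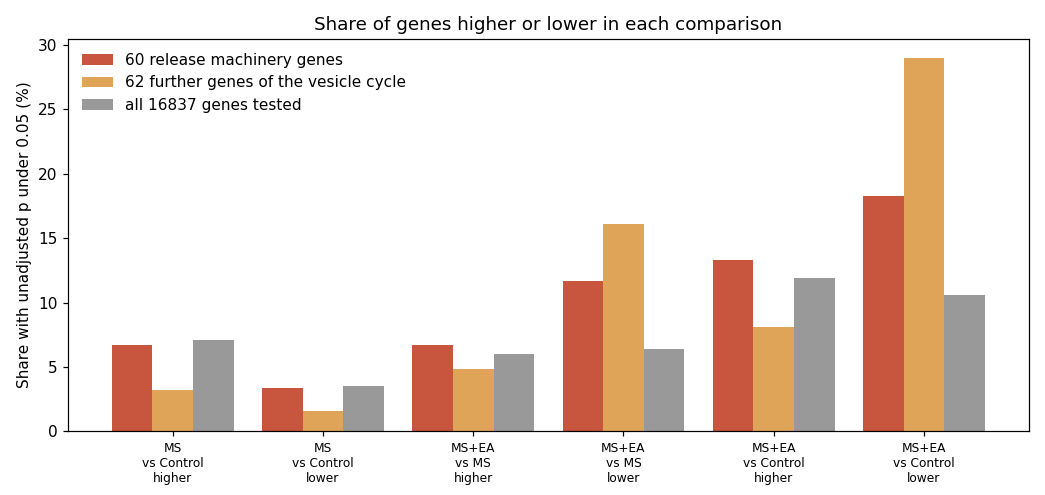
Bars show the percentage of genes with an unadjusted p under 0.05, higher or lower, in each comparison for the 60 members, the 62 further genes of the vesicle cycle and all 16837 genes tested. The widest gap from all genes is in the genes lower in MS+EA than in Control rats, 18.3% of the members and 29% of the further genes beside 10.6%.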

How the data were processed

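Total RNA of the frontal cortex was sequenced in 9 rats, 3 per group, on an Illumina HiSeq X after removal of ribosomal RNA. The submitters' processing notes name HISAT2 2.0.4 and Rnor_6.0. The authors deposited whole-number counts of reads per gene with no normalization. The counting program, its strand setting and its treatment of reads with several locations are not given in the sources used here, so overlapping and antisense genes cannot be told apart. The study tested genes with EBSeq, which was not run here.

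Counts were analysed with edgeR 4.0.16 in R 4.3.3: TMM scaling, filterByExpr with a minimum count of 10, 1 mean per group over all 9 rats, the quasi-likelihood F test and Benjamini-Hochberg adjustment over 16837 genes. The standard error (SE) of a log2 fold change was taken from it and the square root of its F statistic. Calls needed a fold change above 1.5 beside an adjusted p under 0.05, as in the study. The procedure was tested on simulated data. Python 3.11.15 with pandas 2.3.3 and matplotlib 3.10.9 made tables and plots.

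The alternatives were DESeq2 1.42.0, edgeR's likelihood ratio test, limma-trend (limma 3.58.1), DESeq2's size factors or total counts in place of TMM, other filters, a model of the 6 rats in question alone, a call without the fold limit, and the omission of each rat. The members, roles, marker lists and the list of 62 genes were chosen with earlier results of these data known. Values are given in every rat for up to 3 members per comparison and direction with the smallest p, for members whose MS or MS+EA rats lay apart from the other 6, and for the core release genes. Promoter windows came from RefSeq (GRCr8), a build other than that of the counts, and no coordinates of it were used with the counts. Totals ranged from 12479905 to 19007907 counts per rat. The rats were separate animals, so p-values measure the spread between animals. Separation was applied to whole litters, and the litter of each rat is not given in the sources used here. Rats of a group may therefore be littermates, and the spread between litters is not measured. The counts and medians cover all 60 members, of which 2 are not reported here one by one.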

Additional observations from a re-analysis of the deposited data

How the results depend on the processing

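No paired analysis was possible because each group holds its own rats, and the numbers in the labels of any 2 groups coincide in fewer than 2 cases. No gene with an unadjusted p under 0.05 changed direction under any of these settings. In MS against Control, the members past both thresholds numbered 1 with every gene of at least 1 count tested (0 in the main analysis), and those lower at an unadjusted p under 0.05 numbered 1 with at least 10 counts in every rat or with the likelihood ratio test (2 in the main analysis). In MS+EA against MS, scaling by total counts gave 8 higher, 4 lower and a median of -0.037 (4, 7 and -0.079 in the main analysis); that scaling moved the median of all genes by 0.043. In MS+EA against Control, the members past both thresholds numbered 1 with total counts and 4 with no fold threshold. The cause of these moves was not tested, apart from the fold threshold, whose removal only adds calls. With each rat left out in turn, MS against Control gave 2 to 5 higher, 0 to 3 lower and a median of -0.0015 to 0.041. MS+EA against MS gave 1 to 7 higher, 4 to 9 lower and a median of -0.089 to -0.0021. MS+EA against Control gave 0 to 1 past both thresholds, 6 to 10 higher, 7 to 14 lower and a median of -0.038 to 0.025. Members with an adjusted p under 0.05 in MS+EA against Control numbered 4 in the main analysis (6.67%, beside 5.4% of all genes), 11 by DESeq2 (18.3% beside 9.25%), 8 by the likelihood ratio test (13.3% beside 8.57%), 6 with at least 1 count (10% beside 5.59%), 2 with the 6 rats compared (3.33% beside 4.04%), and 0 to 5 with a rat left out (all genes 0.652% to 5.55%). In MS against Control these were 1 by DESeq2 (1.67% beside 1.18%) and 2 with at least 1 count (3.33% beside 1.29%). In MS+EA against MS they were 2 by DESeq2 (3.33% beside 0.891%), 2 by the likelihood ratio test (beside 0.618%) and 1 with at least 1 count (1.67% beside 0.485%). The filter of 10 counts in every rat tested 57 members. At 3 rats per group the smallest members, Stx11, Syt15 and Vamp5, had too few reads for a difference to be detectable.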

Other observations

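Ratios within a rat were looked at after the values had been seen and carry no test. The ratio of Snap25 to Vamp2 counts, both SNAREs of the same bundle, was 1.44 to 1.48 in Control rats and 1.83 to 2.005 in MS rats. It was 1.52 in C3, 2.12 in C10 and 2.04 in C16, so that all 6 separated rats lay above the Control rats. The ratio of Rims2, a large RIM, to Rims3 plus Rims4, the short forms, was 0.227 to 0.269 in Control, 0.194 to 0.276 in MS and 0.319 to 0.378 in MS+EA rats, with the MS+EA rats above the other 6.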
